A study of Mus musculus with 18 samples.

Results

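Interferon-stimulated genes are the genes that cells switch on when they sense interferon, and 34 of them were followed here in the livers of mice fed bisphenol A. They were chosen by name: 16 antiviral effectors, 2 genes of the ISG15 system, 3 cytosolic RNA sensors, 4 transcription factors, 5 interferon-inducible GTPases, 3 genes of antigen processing and 1 chemokine. On the arrays, 30 of the 34 were found under their listed name and measured, out of 17271 genes in all. Dhx58, Irf9 and Irgm1 were present only under older names (D11Lgp2e, Isgf3g and Irgm) and are described apart, and no probe was matched to Xaf1. None of the 30 reached saturation on any array.

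Type I interferons bind a receptor whose kinases activate a complex that holds Stat2 and Irf9 and binds the interferon-stimulated response element in target promoters. Interferon gamma acts on a different element, the gamma-activated site, and Irf1 carries that signal further. The products degrade viral RNA, block viral translation, present viral peptides and attract lymphocytes, and in liver both hepatocytes and the resident macrophages, the Kupffer cells, express them.

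The study measured how bisphenol A, a monomer of polycarbonate plastics that binds estrogen receptors weakly, changes the liver transcriptome. Male mice of the CD-1 stock, which is outbred, were given a powdered diet for 28 days and were 9 weeks old. There were 3 groups of 6 mice, each mouse on 1 array: controls received the diet with no bisphenol A, the low-dose group a diet calculated to give a daily 50 µg per kg body weight, and the high-dose group one calculated to give 5000 µg per kg daily. The doses are averages that assume a fixed food intake. RNA came from a piece of the large lobe, so that in this bulk tissue a change in cell numbers and a change in RNA per cell cannot be told apart. A level below is the log2 intensity of a gene's brightest probe minus the 75th percentile of its array, and a fold change is a difference of group means on that scale. Those 75th percentiles averaged 228.4 ± 42.5 intensity units in controls, 291.4 ± 43.7 in low-dose mice and 287.2 ± 34.6 in high-dose mice (SD, n = 6 each). Arrays with the same scan date in the file headers were taken to share a slide. This gave 5 slides, all of which held both dosed groups and 4 of which held controls. The positions of the groups on the slides were not balanced. High-dose mouse 2 stood apart from all others in its neutrophil marker genes, and the main counts of members at the high dose are given with and without it. High-dose fold changes against controls that turn sign or move by over 1.5 times without that mouse are given both ways. This covers the members' brightest probes and the named pathway genes.

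Both elements can be looked for in the promoters of these genes, and the 7 stretches below were chosen to show either of them near the gene start of a member described further on. RefSeq promoters (build GRCm38.p6) were matched for 26 of the 34 genes, and the 250 bases before each start were searched on both strands. The interferon-stimulated response element, searched as GAAA, any 2 bases and GAAA again (TTTC, any 2 bases and TTTC on the other strand), was found in 12 of the 26 genes, against 3.46% of all 27025 genes in the table (2.98% of its 32851 promoters, since some genes have several). The gamma-activated site, searched as TTCNNNGAA, was found in 6 of the 26 genes, against 8.13% of all genes (7.02% of promoters). Stretches are printed 5′ to 3′ on the gene's own strand, with the response element in capitals or, for Irf1, the gamma-activated site.
Ifit1: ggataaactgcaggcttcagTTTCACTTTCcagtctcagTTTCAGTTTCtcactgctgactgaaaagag
Isg15: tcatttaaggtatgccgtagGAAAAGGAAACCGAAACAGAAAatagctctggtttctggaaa
Oas1a: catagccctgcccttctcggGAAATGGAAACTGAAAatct
Gbp2: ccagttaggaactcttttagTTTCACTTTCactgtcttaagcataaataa
Gbp3: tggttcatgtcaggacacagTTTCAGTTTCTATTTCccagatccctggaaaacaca
Igtp: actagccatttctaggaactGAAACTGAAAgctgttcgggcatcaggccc
Irf1: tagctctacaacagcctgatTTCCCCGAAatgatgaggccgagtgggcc
These lie at chr19:34640765-34640833 on the plus strand (Ifit1), chr4:156200855-156200916 on the minus strand (Isg15), chr5:120907526-120907565 on the minus strand (Oas1a), chr3:142620584-142620633 on the plus strand (Gbp2), chr3:142559979-142560034 on the plus strand (Gbp3), chr11:58199502-58199551 on the plus strand (Igtp) and chr11:53769904-53769952 on the plus strand (Irf1). In Ifit1 the element occurred at 2 separate places, beginning at positions -104 and -85, where -1 is the last base before the gene start. In Isg15 it occurred as 3 overlapping matches that begin at positions -78, -72 and -66. The stretch printed for Irf1 shows the gamma-activated site, at position -90, and no match to the response element was found in its window. The Igtp stretch also holds a match to the gamma-activated site, at position -45, in lower case ahead of the response element at -34. Oasl1, Ddx58, Ifih1, Psmb9 and Tap1 had an entry and no match to either element in this window. A match is a description of letters and not evidence of binding.

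At the high dose most of these genes had higher means than in controls, by modest amounts, and none passed the test. The mean was higher for 28 of the 30 measured members, where 51.8% of all genes tested were higher. The median log2 fold change over the members was 0.33 against 0.01 over all genes. Most pairs of members were positively correlated from mouse to mouse, so members are not independent in these counts or in those below. Mx1 (0.92) is in these counts but is set apart from the ranking. Its probe was well above background in 1 control and 5 high-dose mice and passed the filter on dim probes through the high-dose group. With only probes well above background on all 18 arrays, which leaves Mx1 out, 25 of 27 were higher, against 49.4% of all genes. The median was then 0.33. The largest differences among the others were in Ifi44 (0.79, with control mouse 4 low at -5.67), Ifit1 (0.78), Oasl1 (0.73) and Zbp1 (0.66, or 0.26 without high-dose mouse 2). The exceptions were Iigp1 (-0.33) and Bst2 (-0.12). With limma and Benjamini-Hochberg adjustment over all genes, 0 members and 0% of all genes were called at 0.05, and the smallest adjusted p of a member was 0.679, for Ifit1. Before adjustment 7 members, Mx1 among them, had p under 0.05, where 6.67% of all genes did. With normexp background correction the signs of Mx1, Ifi44, Ifit2, Oas2 and Oasl2 turned negative, at -0.12 to -0.03, and 23 of 30 were higher. Without high-dose mouse 2, the mean was higher for 26 members, against 56.1% of all genes, and their median was 0.29. In that fit 5 members, Mx1 among them, had an unadjusted p under 0.05 in limma, against 5.55% of all genes, and 0 were called.

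At the low dose the members' means lay on both sides of the controls, and none passed the test. The mean was higher than in controls for 19 of 30, where 47.3% of all genes were higher, and the median log2 fold change was 0.09 against -0.01 over all genes. Oasl1 (0.75), Cxcl10 (0.58) and Ddx58 (0.46) had the largest positive differences, and Mx2 (-0.48) and Iigp1 (-0.42) the largest negative ones. In limma 0 members were called where 0.266% of all genes were (0.18% higher and 0.0869% lower), and the smallest adjusted p of a member was 0.167, for Oasl1. Before adjustment 5 members had p under 0.05, where 11.4% of all genes did. The count of members with a higher mean fell to 12 without control mouse 4, and the median then was -0.01. Leaving out high-dose mouse 2, which enters this comparison only through the shared spread, gave calls for 0.51% of all genes (0.284% higher and 0.226% lower) and for 0 members.

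Between the doses, the mean was higher at the high dose than at the low dose for 26 of 30 members, where 55.4% of all genes were higher, and the median log2 fold change was 0.31 against 0.02. Mx2 (0.68), Ifit1 (0.65) and Usp18 (0.61) led, apart from Mx1 (0.79), which was well above background in only 2 low-dose mice and owed its passing of the filter to the high-dose group. Mx1 is in the counts here, also in that of unadjusted p under 0.05 with all mice. With only probes well above background on all 18 arrays, which leaves Mx1 out, 23 of 27 were higher, against 53.9% of all genes. The median was then 0.28. Oasl1, Ddx58, Stat2 and Cxcl10 were between -0.02 and -0.13, or between -0.07 and -0.12 without high-dose mouse 2. Oas2, at 0.21, turned to -0.19 without that mouse. In limma 0 members were called where 0.029% of all genes were (0.00579% higher and 0.0232% lower), 6 had an unadjusted p under 0.05 against 7.64% of all genes, and the smallest adjusted p was 0.378, for Mx2. Without high-dose mouse 2 the count was 24 of 30, against 57.6% of all genes, and the median 0.21. In that fit 3 members had an unadjusted p under 0.05 in limma, against 9.33% of all genes, and 0 were called, against 0.0405% of all genes (0.0174% higher and 0.0232% lower), with a smallest adjusted p of 0.363. The comparisons share their groups, so the high-dose counts against controls and against the low dose are not separate evidence. In no member did the 6 mice of a group lie wholly above or below those of another. Over all genes without a missing value, low-dose mice lay wholly above controls in 0.768% and below in 0.839%. High-dose mice lay wholly above controls in 0.125% and below in 0.173%, and the high dose lay wholly above the low dose in 0.155% and below it in 0.304%.

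**Figure D1:**
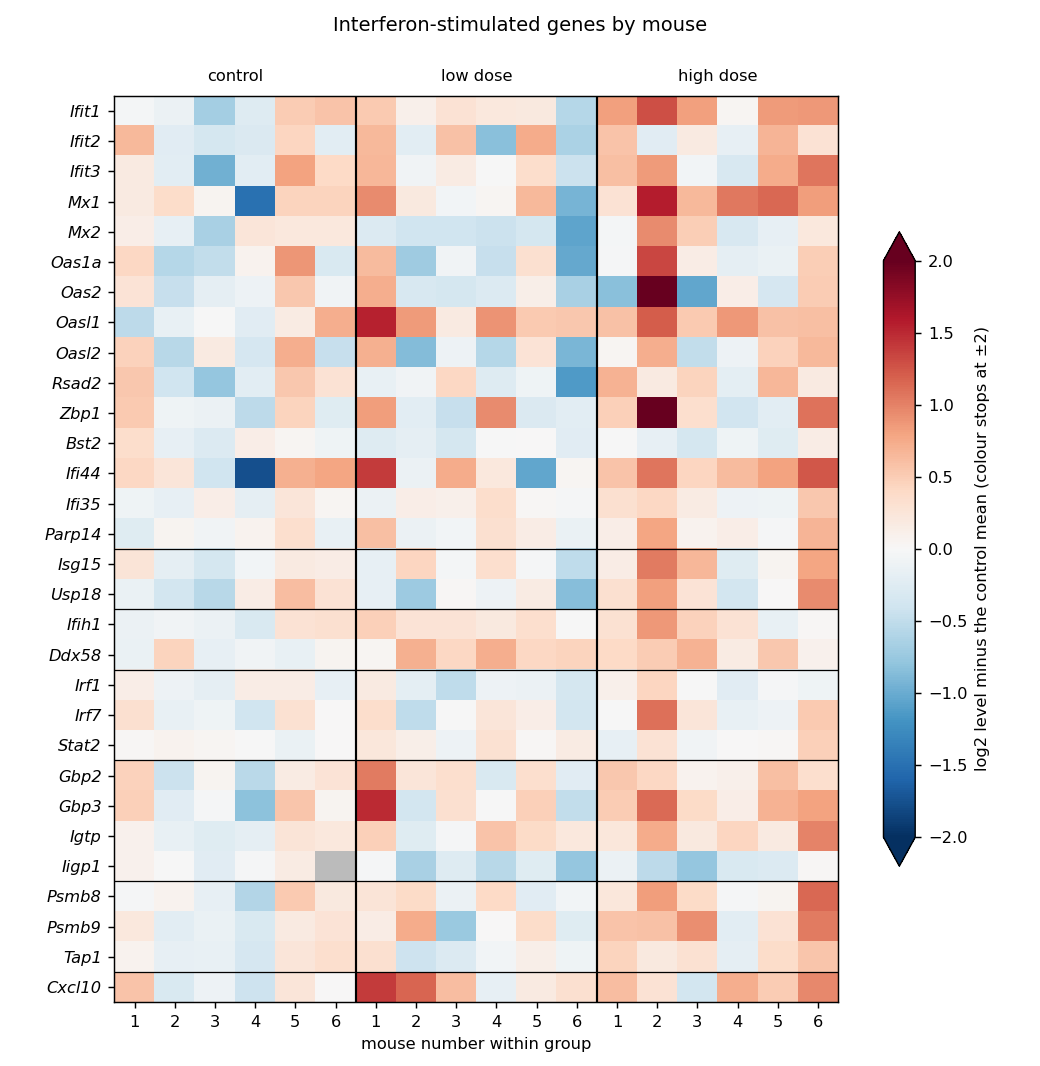
Level of each of the 30 measured interferon-stimulated genes (rows, grouped by role) in each of the 18 mice (columns), as log2 difference from the control mean, with 1 grey cell where a value is missing. Red prevails in high-dose mice 2 and 6, with 27 and 29 of 30 genes above the control mean, but not in high-dose mouse 4, with 12. High-dose mouse 2 was the highest of 18 mice for 12 genes, and control mouse 4 the lowest for 9.

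Among the antiviral effectors, the Ifit genes encode proteins that bind viral RNA and hold back its translation. Ifit1 was read by a probe at chr19:34715303-34715362 (mouse build mm8). Its level ran from -2.57 to -1.32 around a median of -1.97 in controls, from -2.46 to -1.38 around -1.69 at the low dose and from -1.86 to -0.61 around -1.05 at the high dose. At the high dose 5 of 6 mice were above every control, and only mouse 4, at -1.86, was not. The log2 fold change against controls was 0.78 ± 0.23 (SE, 1.72-fold, limma adjusted p = 0.679) and 0.68 ± 0.24 without high-dose mouse 2. Against the low dose it was 0.65 ± 0.23 (adjusted p = 0.481), and the low dose differed from controls by 0.13 ± 0.23. Ifit3 had a log2 fold change of 0.48 ± 0.28 at the high dose against controls on its brightest probe, with 2 high-dose mice above all controls. A second, dimmer Ifit3 probe gave 1.36 ± 0.38 (limma adjusted p over all probes = 0.612), so that its probes differ in size but not in sign. Ifit2, which was well above background on 16 of 18 arrays, differed by 0.22 ± 0.28.

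The Mx genes encode GTPases that trap viral ribonucleoproteins. Mx1 was dim, well above background in 1 control, 2 low-dose and 5 high-dose mice, so a difference at the high dose was built into its selection. Its level ran from -6.93 to -4.99 around a median of -5.17 in controls, from -6.37 to -4.50 around -5.32 at the low dose and from -5.15 to -3.87 around -4.49 at the high dose. Here too 5 of 6 high-dose mice were above every control, with mouse 1 the exception, and the lowest control, mouse 4, lay far below the rest. The log2 fold change at the high dose was 0.92 ± 0.34 (limma adjusted p = 0.715), and with normexp background correction it turned to -0.09. Mx2 was well above background on all 18 arrays. It ran from -0.34 to 0.55 around a median of 0.47 in controls, from -0.75 to 0.03 around -0.09 at the low dose and from -0.02 to 1.25 around 0.39 at the high dose. All 6 low-dose mice were below the control median, and the log2 fold change at the low dose was -0.48 ± 0.21 (limma adjusted p = 0.376). The high dose exceeded the low dose by 0.68 ± 0.21 (limma adjusted p = 0.378), or 0.52 ± 0.19 without high-dose mouse 2, and differed from controls by 0.19 ± 0.21, or 0.04 ± 0.19 without that mouse.

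The oligoadenylate synthetases make the messenger that activates the ribonuclease RNase L, and the Oasl genes are related to them. Oasl1 was the member with the smallest p at the low dose. Its level ran from -1.09 to 0.16 around a median of -0.65 in controls, from -0.40 to 0.96 around 0.12 at the low dose and from -0.05 to 0.64 around 0.03 at the high dose. Control mouse 6, at 0.16, lay among the dosed mice, and every dosed mouse was above the other 5 controls, low-dose mouse 3 by a narrow margin (-0.40 against -0.41). The log2 fold changes were 0.75 ± 0.22 at the low dose (1.68-fold, limma adjusted p = 0.167) and 0.73 ± 0.22 at the high dose (1.66-fold, adjusted p = 0.679), and the doses differed by -0.02 ± 0.22, or -0.12 ± 0.22 without high-dose mouse 2. Within slides, the mean of dosed mice was above that of controls on 4 of 4 slides at either dose. Oasl2, also on chromosome 5, had log2 fold changes of -0.25 ± 0.30 at the low dose and, against the same controls, 0.21 ± 0.30 at the high dose (0.11 ± 0.32 without high-dose mouse 2). Oas1a (0.27) and Oas2 (0.08) at the high dose rested on high-dose mouse 2, at -0.32 and -0.55 the highest of 18 mice for either gene, and without it the fold changes were 0.06 and -0.31.

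Rsad2 encodes viperin, which makes a chain-terminating nucleotide. It ran from -2.08 to -0.76 around a median of -1.27 in controls, from -2.44 to -0.90 around -1.43 at the low dose and from -1.50 to -0.61 around -0.99 at the high dose. The groups overlapped over most of their range, and the high dose exceeded the low dose by 0.54 ± 0.26 (limma adjusted p = 0.654). Its 2 dimmer probes gave 0.10 and -0.16 at the high dose against controls, where the brightest gave 0.33, so the sign there depends on the probe. Zbp1, a sensor of nucleic acids in the Z form, had a level of 1.69 in high-dose mouse 2 and between -1.36 and 0.11 in the other high-dose mice. Its log2 fold change of 0.66 ± 0.42 at the high dose was 0.26 ± 0.31 without that mouse. Ifi44, well above background on 16 arrays, ran from -5.67 to -3.11 around a median of -3.58 in controls. At the high dose it ran from -3.48 to -2.66 around -3.18. Its lowest control, mouse 4 at -5.67, lay far below the next, mouse 3 at -4.30. The difference of the means was 0.79 ± 0.41, and it became -0.05 with normexp background correction. Parp14 (0.29 ± 0.16, or 0.19 ± 0.15 without high-dose mouse 2) and Ifi35 (0.20 ± 0.12) had smaller positive differences at the high dose, and Bst2, which tethers budding virus to the cell, had -0.12 ± 0.11. The dimmer Parp14 probes gave 0.43 and 0.09 at the high dose, or 0.32 and -0.10 without high-dose mouse 2.

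In the ISG15 system, Isg15 is a ubiquitin-like protein that is attached to other proteins, and Usp18 removes it and also damps the interferon receptor. Usp18 ran from -2 to -0.84 around a median of -1.45 in controls, from -2.30 to -1.29 around -1.58 at the low dose and from -1.82 to -0.50 around -1.15 at the high dose. High-dose mice 2 and 6 were above every control and the other high-dose mice were within the control range. The difference between the doses was 0.61 ± 0.25 (limma adjusted p = 0.570), and against controls it was 0.34 ± 0.25 at the high dose and -0.28 ± 0.25 at the low dose. Isg15 was 0.36 ± 0.24 in controls, 0.36 ± 0.34 in low-dose mice and 0.77 ± 0.50 in high-dose mice (SD, n = 6 each), of which 3 were above every control. Its log2 fold change at the high dose was 0.41 ± 0.21 (limma adjusted p = 0.768), or 0.28 ± 0.20 without high-dose mouse 2. The deposited annotation places this probe on chromosome 17 in build mm8, while RefSeq places the gene on chromosome 4, and the other 29 members' probes lay on the chromosome of their gene.

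The cytosolic RNA sensors Ddx58 (RIG-I) and Ifih1 (MDA5) detect viral RNA and start interferon production. Ddx58 ran from 0.22 to 0.83 around a median of 0.28 in controls, from 0.42 to 1.11 around 0.81 at the low dose and from 0.46 to 1.08 around 0.83 at the high dose. Control mouse 2, at 0.83, lay among the dosed mice, and all dosed mice but low-dose mouse 1, at 0.42, were above the other 5 controls, which reached 0.44. The log2 fold changes were 0.46 ± 0.14 at the low dose (limma adjusted p = 0.192) and 0.40 ± 0.14 at the high dose (adjusted p = 0.715), and the doses differed by -0.06 ± 0.14. The gene has 4 kept probes, and the other 3 gave between 0.07 and 0.28 at the low dose and between 0.05 and 0.24 at the high dose, all of the same sign and smaller. Ifih1 ran from 1.03 to 1.65 around a median of 1.24 in controls, from 1.33 to 1.81 around 1.61 at the low dose and from 1.19 to 2.20 around 1.64 at the high dose. The controls overlapped both dosed groups, and the log2 fold changes were 0.26 ± 0.15 (limma adjusted p = 0.562) and 0.30 ± 0.15 (adjusted p = 0.767). The latter was 0.19 ± 0.14 without high-dose mouse 2, whose level of 2.20 was the highest. A dimmer Ifih1 probe gave 0.95 ± 0.20 at the low dose (limma adjusted p over all probes = 0.0656) and 0.79 ± 0.20 at the high dose (adjusted p = 0.612). Both sensors had means above controls at both doses, with differences between the doses of -0.06 and 0.04. For Ifih1 the difference between the doses turned to -0.02 with the array median as scale and to -0.07 without high-dose mouse 2.

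Of the transcription factors, Irf7 amplifies the type I response, Irf1 is induced by interferon gamma and Stat2 is part of the complex that binds the response element. Stat2 differed from controls by 0.13 ± 0.10 in low-dose mice and 0.09 ± 0.10 in high-dose mice, or 0.05 ± 0.11 without high-dose mouse 2. Irf1 was 3.5 ± 0.16 in controls, 3.31 ± 0.24 in low-dose mice and 3.53 ± 0.22 in high-dose mice (SD, n = 6 each), with overlapping groups, and its high-dose difference of 0.03 turned to -0.04 with the array median as scale and to -0.05 without high-dose mouse 2. A second, dimmer Irf1 probe gave -0.11 ± 0.19 at the high dose and -0.26 ± 0.19 at the low dose. Irf7 had a log2 fold change of 0.26 ± 0.21 at the high dose, which was 0.10 ± 0.18 without high-dose mouse 2, whose level of -0.01 was the highest of 18 mice.

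The interferon-inducible GTPases attack the vacuoles in which intracellular pathogens live. Igtp ran from 3.72 to 4.22 around a median of 3.92 in controls, from 3.71 to 4.52 around 4.25 at the low dose and from 4.14 to 4.95 around 4.28 at the high dose. High-dose mice 2, 4 and 6 were above every control, and the other 3 lay at 4.14 to 4.18, near the top of the control range. The log2 fold change at the high dose was 0.46 ± 0.17 (1.37-fold, limma adjusted p = 0.715), 0.40 ± 0.17 without high-dose mouse 2 and above 0 on 4 of 4 slides. Gbp3 had 0.61 ± 0.30 and Gbp2 0.35 ± 0.21 at the high dose, likewise above 0 on 4 of 4 slides, and the highest Gbp3 level of all mice was in low-dose mouse 1, at 0.54. Iigp1 had lower means in dosed mice. Its level ran from 6.18 to 6.58 around a median of 6.40 in 5 controls, with the sixth value missing, from 5.64 to 6.38 around 6.00 at the low dose and from 5.63 to 6.44 around 6.12 at the high dose. No dosed mouse exceeded the highest control. Its log2 fold changes were -0.42 ± 0.15 at the low dose (limma adjusted p = 0.291) and -0.33 ± 0.15 at the high dose (adjusted p = 0.748), below 0 on 4 of 4 slides at either dose.

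Antigen processing genes cut and carry peptides for display on MHC class I. Psmb8 and Psmb9 encode subunits of the immunoproteasome and Tap1 a peptide transporter, and Psmb9 and Tap1 point away from each other with 225 bases between their starts (chromosome 17, GRCm38.p6). Psmb9 ran from 2.47 to 3.05 around a median of 2.79 in controls, from 2.04 to 3.52 around 2.86 at the low dose and from 2.57 to 3.81 around 3.36 at the high dose. At the high dose 5 of 6 mice were above every control, mouse 5 by a narrow margin (3.06 against 3.05) and mouse 4 being the exception. The log2 fold change was 0.53 ± 0.23 (1.45-fold, limma adjusted p = 0.721) and 0.52 ± 0.25 without high-dose mouse 2. Tap1 ran from -0.95 to -0.27 around a median of -0.65 in controls, from -1.02 to -0.29 around -0.68 at the low dose and from -0.79 to -0.05 around -0.28 at the high dose. It exceeded the low dose by 0.34 ± 0.15 (limma adjusted p = 0.612) and controls by 0.28 ± 0.15 at the high dose, and was 0.30 ± 0.16 above controls without high-dose mouse 2. Psmb8 differed from controls by 0.44 ± 0.21, with high-dose mice 2 and 6 above every control. The differences at the high dose in all 3 genes were above 0 on 4 of 4 slides.

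Cxcl10 encodes a chemokine that draws activated T cells. It ran from -2.47 to -1.49 around a median of -2.12 in controls, from -2.23 to -0.67 around -1.60 at the low dose and from -2.43 to -1.10 around -1.50 at the high dose. Low-dose mice 1, 2 and 3 and high-dose mice 1, 4 and 6 were above every control, and the groups overlapped. The log2 fold changes were 0.58 ± 0.27 at the low dose (limma adjusted p = 0.409) and 0.46 ± 0.27 at the high dose (adjusted p = 0.796).

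**Figure D2:**
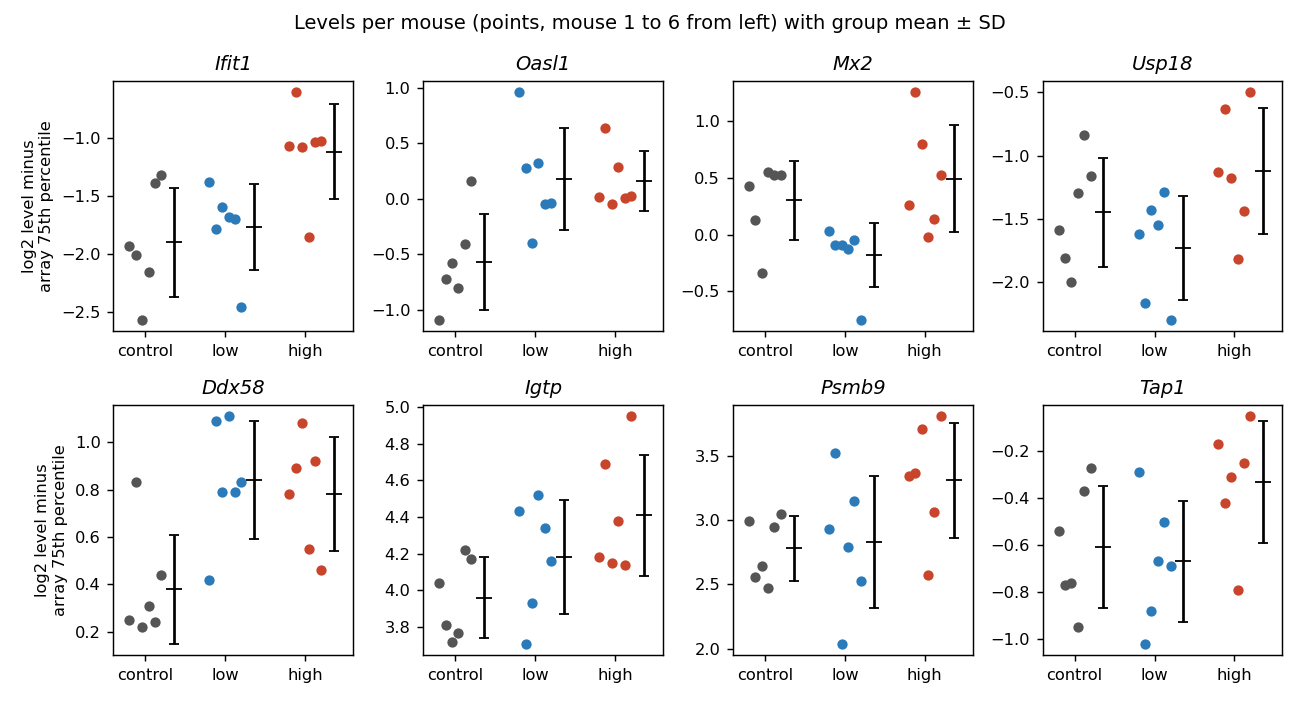
Levels per mouse of 8 members in the 3 groups, on the log2 scale relative to each array's 75th percentile, with the group mean and SD as a bar at the right of each group. Dosed mice lie above 5 of 6 controls for Oasl1, and the low-dose mice have the lowest mean for Mx2. For Ifit1 and Psmb9, 5 of 6 high-dose mice lie above every control, mouse 5 only narrowly for Psmb9.

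**Figure D3:**
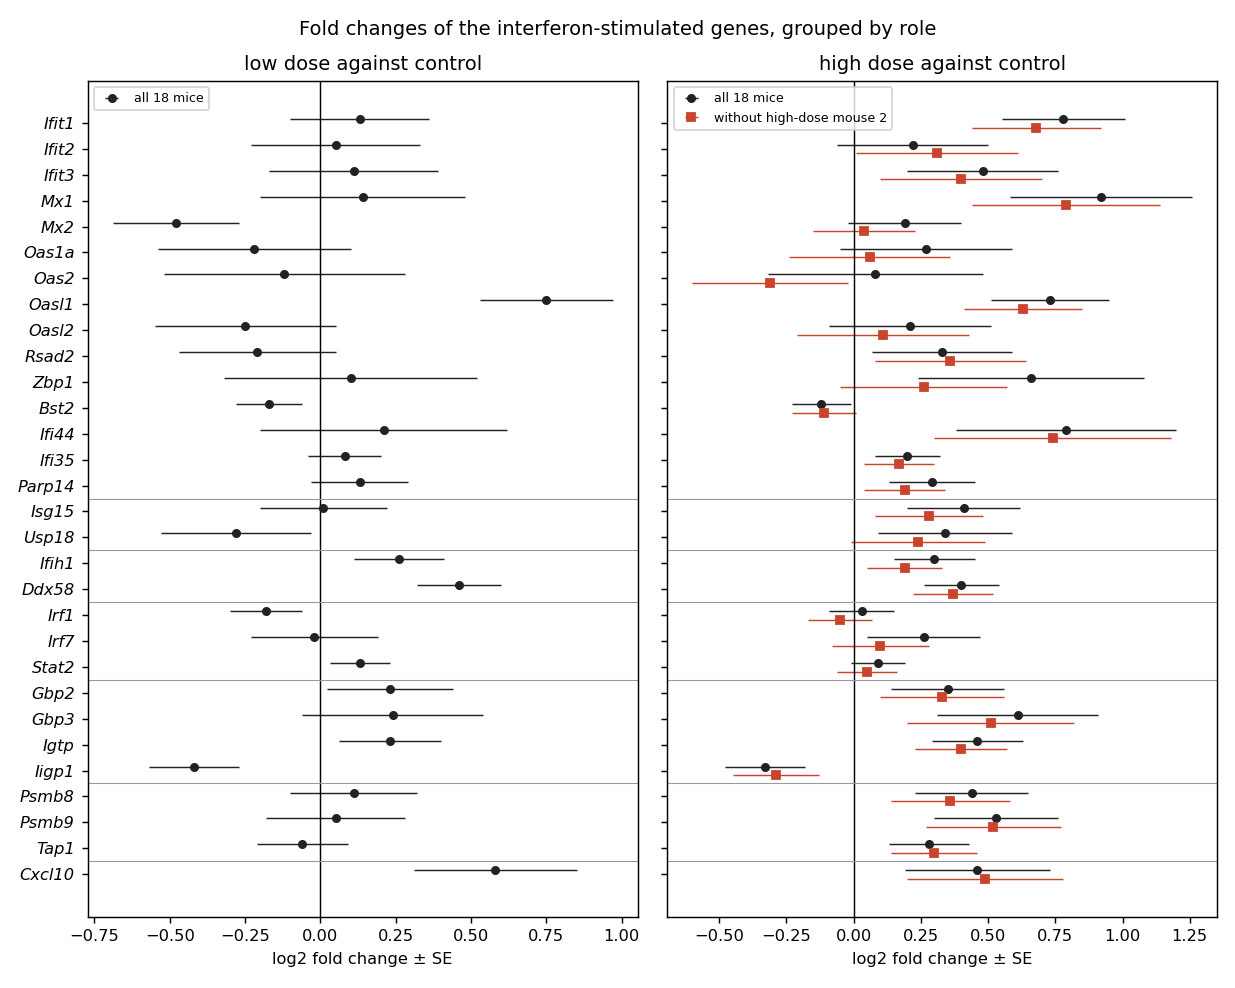
Log2 fold changes with SE for the 30 measured members, grouped by role, for low dose against control (left) and high dose against control (right), the latter also without high-dose mouse 2 in red. At the high dose 28 of 30 points lie right of 0 with all mice and 26 without that mouse, and the greatest loss is in Zbp1 and Oas2.

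To describe each mouse by 1 number, the median over the 30 members of the difference from the control mean was taken. This score ran from -0.22 to 0.30 in controls, from -0.29 to 0.48 at the low dose and from -0.10 to 0.81 at the high dose, with means of 0.01 ± 0.22, 0.03 ± 0.26 and 0.33 ± 0.33 (SD, n = 6). High-dose mice 2 (0.81) and 6 (0.58) and low-dose mouse 1 (0.48) were the highest. Low-dose mouse 6 (-0.29) and control mouse 4 (-0.22) were the lowest. Without high-dose mouse 2 the high-dose scores ran from -0.10 to 0.58. High-dose mouse 2 was the highest of 18 mice for 12 of 30 members, Mx1 among them, against 8.66% of all genes without a missing value. It was the lowest for 0, against 12.9%. High-dose mouse 6 was the highest for 8 of 30, against 9.9%. Within slides, the mean score of high-dose mice was above that of controls on 4 of 4 slides, by 0.05 to 0.97. The 0.97 was on slide 5, where mouse 2 was the only high-dose mouse, and the largest on another slide was 0.45. High-dose mice were above low-dose mice on 4 of 5 slides, by -0.06 to 0.65. Low-dose mice were above controls on 2 of 4 slides, by -0.60 to 0.48. With slide as a block, 27 of 30 members had higher means at the high dose than in controls, with a median of 0.34, and in a fit chosen after the data were seen, with array brightness as covariate, 29 of 30 did, with a median of 0.40.

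Marker genes of blood and tissue cells were high in some of these mice. Of 8 neutrophil markers 4 were measured (Csf3r, Mpo, S100a8 and S100a9), and their score, taken in the same way, was 5.25 in high-dose mouse 2 and between -0.84 and 1.73 in the other 17 mice, of which low-dose mouse 1 was the highest. On a linear scale their summed level was 1.24 to 3.09 in controls, 1.54 to 6.55 at the low dose and 0.907 to 54.4 at the high dose, in units of the 75th percentile, and Ly6g, Elane, Camp and Ngp were not measured. The median log2 fold change of the 4 markers at the high dose was 0.65 with all mice and -0.16 without high-dose mouse 2, where that of the interferon-stimulated genes was 0.33 and 0.29. Of 11 Kupffer cell and macrophage markers 8 were measured, and 7 of the 8 had higher means at the high dose, with a median of 0.38, or 0.22 without that mouse. Their score was 1.5 in high-dose mouse 2 and 1.00 in low-dose mouse 1, and ran from -0.80 to 0.74 in controls. Their summed level was 27.2 to 83.3 in controls, 34 to 93.1 at the low dose and 39.6 to 145 at the high dose. Between the doses, without that mouse, 3 of the 8 were higher, with a median of -0.06. Of 10 measured T and NK cell markers 8 were higher at the high dose (median 0.11), as were 4 of 4 B cell markers (median 0.36), and hepatocyte markers, 7 of 9 measured, had -0.09. The summed level of those hepatocyte markers was 676 to 929 in controls, 642 to 907 in low-dose mice and 633 to 834 in high-dose mice. Of the dendritic cell markers, which include the member Bst2, 2 of 5 measured were higher at the high dose (median -0.02). For sinusoidal endothelium it was 2 of 6 (-0.04) and for stellate cells 2 of 7 (-0.03). Without high-dose mouse 2 these counts were 1, 4 and 5. Over all genes 51.8% were higher, or 56.1% without that mouse. None of these markers was called at the high dose in limma. The part of blood and immune cells in the levels of the interferon-stimulated genes was not tested.

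**Figure D4:**
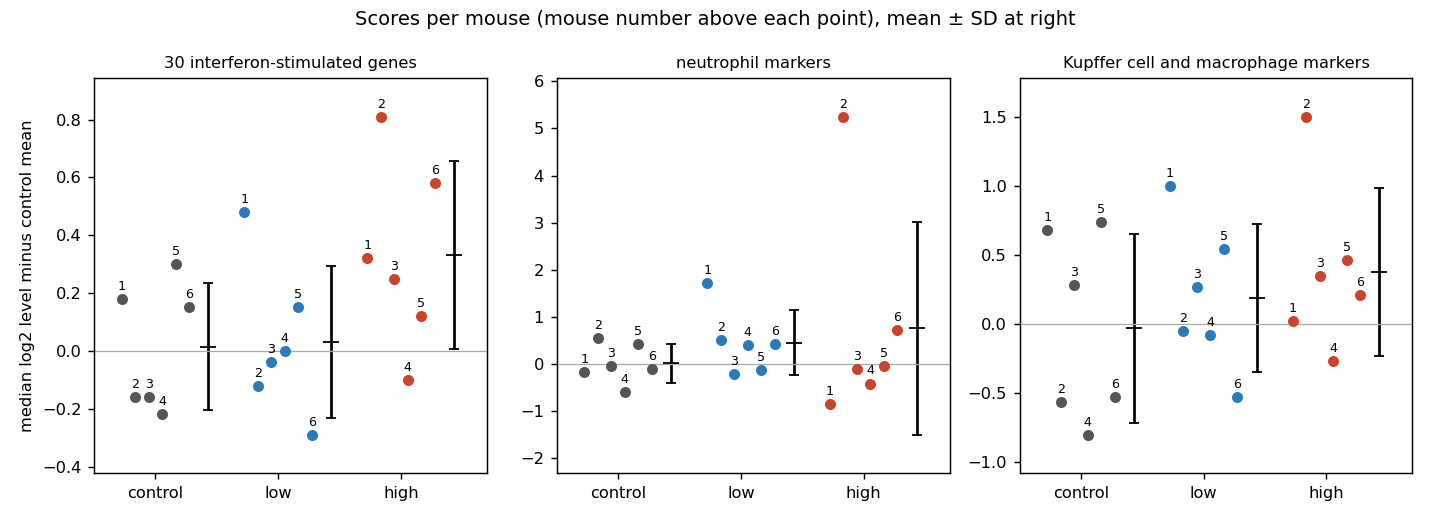
Score per mouse (median log2 difference from the control mean) for the 30 interferon-stimulated genes, 4 neutrophil markers and 8 Kupffer cell and macrophage markers, with the mean and SD of each group at the right and the mouse number above each point. High-dose mouse 2 is the highest in all 3 panels, at 0.81, 5.25 and 1.5, and the axes of the panels differ.

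Most pairs of members were positively correlated from mouse to mouse. After group means were removed, the median Pearson correlation over the 435 pairs of members was 0.38 across 18 mice, and 388 pairs were above 0. Without high-dose mouse 2 the median was 0.37, with 389 pairs above 0. These are descriptions over mice that share slides and array scaling. The same values over pairs of other genes were not computed. Whether the members vary together more than other genes was therefore not tested. Oasl2 with Gbp3 (0.87) and Ifit1 with Ifit3 (0.86) were among the closest pairs, and Irf7 had the highest median correlation with the other members, at 0.57. Ddx58 stood apart, with a median of -0.20 and no partner above 0.24, although its mean was higher at both doses.

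Upstream and beside these genes, lists of the pathway were counted in the same way. Of 11 ligands 3 were measured, Ifna2, Ifna5 and Il18, an inducer of interferon gamma, and the genes for interferon beta and interferon gamma were not among those measured. At the high dose Ifna2 differed by -0.28 ± 0.54, Ifna5 by -0.36 ± 0.73, both dim (Ifna5 by -0.21 ± 0.78 without high-dose mouse 2), and Il18 differed by 0.04 ± 0.10. Of 9 receptor and kinase genes 4 had higher means at the high dose, or 2 without high-dose mouse 2, and 5 at the low dose, and none was called. The receptor chain Ifnar1 differed at the high dose by -0.05 ± 0.14, Ifngr1 by -0.14 ± 0.18 and Ifngr2 by 0.04 ± 0.11 (-0.02 ± 0.11 without high-dose mouse 2), while Il28ra, of the interferon lambda receptor, had 0.78 ± 0.43 at a dim level. Of 9 measured genes for transcription factors and inhibitors of the pathway 7 had higher means at the high dose (median log2 fold change 0.17), but 5 without high-dose mouse 2 (median 0.09), and none was called. Over all genes 51.8% had higher means at the high dose, or 56.1% without that mouse. Irf2, an antagonist of Irf1, had a log2 fold change of 0.61 ± 0.23 at the high dose (adjusted p = 0.715 in limma), and Irf8, a factor of myeloid cells, 0.40 ± 0.17, or 0.27 ± 0.15 without high-dose mouse 2.

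Among 10 measured sensors and adaptors 1 gene passed the test, lower at the low dose, where 0.0869% of all genes were called lower. Trim25, the ubiquitin ligase that activates RIG-I, fell at the low dose, from a median of 4.18 (4.00 to 4.52) in controls to 3.74 (3.43 to 3.79), with 4.01 (3.71 to 4.22) at the high dose. The low-dose mice all lay below the controls, as they did in 0.839% of all genes without a missing value. The log2 fold change was -0.54 ± 0.11 (0.689-fold, limma adjusted p = 0.0493), against -0.22 ± 0.11 at the high dose (adjusted p = 0.749). The call was close to the threshold: it held in 6 of 15 other settings, with adjusted p from 0.0284 to 0.685 over the settings, and in 3 of 18 fits that left out 1 array, those without low-dose mouse 4, high-dose mouse 2 or high-dose mouse 4. Without any other array the adjusted p was between 0.0511 and 0.125, and the fold change was negative in all these fits. With slide as a block the adjusted p was 0.148 and with array brightness as a covariate, chosen after the data were seen, 0.523. Tbk1, the kinase that activates the interferon regulatory factors, had -0.31 ± 0.11 at the low dose (limma adjusted p = 0.272).

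The other interferon-inducible genes, a list of 53 with 38 measured, also had mostly higher means at the high dose, by smaller amounts. Of the 38, 33 exceeded controls at the high dose (median log2 fold change 0.17), where 51.8% of all genes did. Without high-dose mouse 2 it was 26 of 38 (median 0.11), against 56.1% of all genes. With or without that mouse 0 were called in limma. At the low dose 22 of 38 were higher, against 47.3% of all genes, with a median of 0.04. Cxcl11, a chemokine related to Cxcl10, had 0.74 ± 0.26 at the low dose (limma adjusted p = 0.254) and 0.47 ± 0.26 at the high dose. Psme2, a proteasome activator subunit, had 0.18 ± 0.08 and 0.22 ± 0.08 (limma adjusted p = 0.404 and 0.715).

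The 3 members found under older names are given here in turn. Dhx58, a regulator of the RNA sensors, exceeded the low dose by 0.56 ± 0.25 at the high dose (limma adjusted p = 0.612) and controls by 0.22 ± 0.25, with low-dose mouse 4 at -1.76 far below the others. Irf9 was 0.33 ± 0.17 above controls at the high dose and 0.00 ± 0.17 at the low dose. Irgm1, a regulator of the GTPases, differed by 0.16 ± 0.08 at the high dose and 0.14 ± 0.08 at the low dose. With these names updated, 31 of 33 members had higher means at the high dose and 20 of 33 at the low dose, and 0 were called in limma.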

How the data were processed

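The deposited scanner files give, per the file headers, background-subtracted spot intensity, and raw spot and background intensity, of 1 colour (Cy3), with no scaling between arrays. The deposited value table holds log2 values of the authors, whose scale and centring are not stated in the sources used here. Feature Extraction 9.5 (Agilent) and limma are named, per the submitters' processing notes.

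Log2 intensities were scaled by subtracting each array's 75th percentile over 43379 non-control spots. Outlier spots were dropped, repeat spots averaged, and probes kept that were well above background on at least 6 of 18 arrays. Each deposited gene name was read from its brightest kept probe. Groups were compared with limma 3.58.1 (R 4.3.3; lmFit and eBayes, 2-sided, all arrays, group as the only term), adjusted by Benjamini-Hochberg over all genes (threshold 0.05). The procedure was tested on simulated data. The number of arrays limits precision: the median SE was 0.166 at the high dose against controls. The mice are separate animals.

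The members and lists were chosen with earlier results of these data known. Per-mouse values are given for the 6 members with the smallest p in each comparison and for members with an outlying mouse; of the pathway lists, genes past the threshold, the 2 with the smallest p and Ifnar1, Ifngr1 and Ifng are named, and 1 further gene of that rule is not reported here. Mouse numbers do not pair the groups by any stated rule. The alternatives were other scalings, background methods, filters, probe summaries, model options, slide or mouse number as a block, and leaving out each array. Probe coordinates are on build mm8, promoters on GRCm38.p6.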

Additional observations from a re-analysis of the deposited data

Results flagged for a closer look

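In 3 of 90 tests of a member within a group of 6 mice, 1 mouse lay far from the others (Dixon's test, which flags about 5% of groups by chance). Mx1 was -6.93 in control mouse 4, below a range of -5.39 to -4.99 in the other controls. Ddx58 was 0.83 in control mouse 2, above 0.22 to 0.44 in the others. Mx2 was -0.75 in low-dose mouse 6, below -0.13 to 0.03 in the others. Over all genes, 5.21% of control groups, 6.74% of low-dose groups and 7.41% of high-dose groups met the same rule. High-dose mouse 2 was the outlier in none of the members.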

How the results depend on the processing

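The 3 counts of called members were 0 under all settings and with any array left out. The counts of members with a higher mean and the medians moved little at the high dose: over the fits without 1 array, 26 to 28 members and 0.28 to 0.41 against controls, and 24 to 28 members and 0.21 to 0.39 against the low dose. At the low dose the count ran from 12 (without control mouse 4) to 20, and the median from -0.02 (without low-dose mouse 1) to 0.13. With normexp the high-dose count was 23 and the median 0.20. Single members changed sign in 20 of 446 values under other settings at the low dose, in 10 at the high dose and in 12 between doses, and none was called in either sign.

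The number of genes called depended on the setting. At the low dose, 46 genes were called. The number was 8 with the array median, 13 with normexp and 13 with no filter, 21 with the mean of probes, 2 with slide as a block, and 0 with array brightness as covariate (added after the data were seen). More genes passed elsewhere, 85 with the filter on all 18 arrays, 87 with only the groups compared, 89 with trend and robust, and 124 with array weights; leaving out 1 array gave 2 to 88. Of the calls 31 of 46 were higher, against 40 of 51 with the deposited value table, 7 of 8 with the array median and 13 of 13 with normexp. Between doses, 5 genes were called, against 1 with normexp, 2 with no filter, 8 with trend and robust, 14 with array weights and 0 with only the groups compared or slide as a block; leaving out 1 array gave 1 to 10. The cause of these shifts was not tested.

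With the replicate block the counts were 5 and 0 genes, and 0 members. Pairing by mouse number was not borne out: same-numbered mice correlated by 0.03 on average after group means were removed (-0.31 to 0.35), against 0.19 for mice of the same slide. The blocked fit changed no call of a member.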
